A study of Mus musculus with 125 samples.

Results

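The proteasome is the large protease that degrades ubiquitin-tagged proteins, and its genes carry mouse symbols that begin with Psma, Psmb, Psmc, Psmd, Psme, Psmf or Psmg. Symbols with one of these starts and a number were taken, and pseudogene names were set aside, which gave 50 genes of the 43421 genes measured. They comprised 7 alpha and 7 beta subunits of the core, 9 subunits of the base, 8 of the lid, 7 assembly chaperones, 6 activators or inhibitors, 5 core subunits with tissue-restricted expression, and Psmc3ip. Psmc3ip shares the symbol but is a meiotic recombination factor and no subunit. It has a role of its own here, but it is counted in all numbers of members below. The RNA of single mouse embryos was sequenced at the 2-cell stage, when the store of RNA laid down in the oocyte is being degraded and the embryo's own genome has been switched on. Zygotes were picked at 10 h after fertilization, their second polar bodies were taken off, and each embryo was lysed whole at 34 h.

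The cross C57BL/6 x JF1/Ms gave 43 embryos from zygotes with 2 pronuclei (2PN), 11 from zygotes with 1 pronucleus (1PN) and 8 that were scored 1PN under the microscope but called parthenotes in silico by the submitters. The cross JF1/Ms x C57BL/6, called the reciprocal cross below, gave 21, 3 and 4 such embryos. A further 31 embryos were parthenotes of the strain C57BL/6, which have no father. Below, 1PN alone means the embryos not called parthenogenetic. The labels do not say which strain was the mother, which embryos shared parents or how the parthenotes were activated. The p-values therefore measure the spread between these embryos, and in the comparison of C57BL/6 parthenotes with hybrids the strain and the missing father cannot be told apart. The same holds where embryos called parthenogenetic are set against hybrids, since a parthenote also lacks the genome of the father's strain. In the difference between crosses, the strain of the mother differs as well.

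In the proteasome, the alpha and beta subunits stack as rings into a hollow core, where the beta subunits Psmb5, Psmb6 and Psmb7 carry the peptide-cutting sites. The base holds the ATPases that unfold substrates (Psmc1 to Psmc6), and the lid removes ubiquitin chains, with Psmd14 as the deubiquitinase. Activators of the Psme family can cap the core in place of the base and lid. Early embryos depend on proteasomes, since proteins laid down in the oocyte are degraded along with the RNA during the passage to embryonic control.

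The 121 libraries compared held between 533276 and 4887274 gene counts, with a median of 3392406, and levels are given below as CPM, a gene's counts after each library was scaled to a sum of 1000000. Gene lengths were not used here, so levels are compared between embryos and never between genes. Oocyte transcripts identified the tissue: the 20 genes of a list of oocyte-derived transcripts summed to medians of 2994 CPM in 2PN, 2873 in 1PN and 7791 in embryos called parthenogenetic, all from C57BL/6 x JF1/Ms. The medians in the reciprocal cross were 1543, 1389 and 15105 CPM, and in C57BL/6 parthenotes 4471 CPM. These transcripts thus moved with the parthenogenetic call, and their part in the results below was not tested. Markers of cumulus and granulosa cells summed to medians between 1.55 and 32.8 CPM over the groups, with Fshr no higher than 0.265 CPM in any embryo, and those of sperm and testis to medians between 9.83 and 48.5 CPM. Markers of blood and immune cells summed to medians between 41.1 and 131 CPM, with Cd3e no higher than 0.334 CPM. The highest sums of the cumulus and blood lists, both in C57BL/6 parthenotes, were 94.1 and 487 CPM. By the test given below, 4 of 6 cumulus genes tested were higher in these parthenotes than in 2PN embryos of C57BL/6 x JF1/Ms. Of 7 blood genes tested, 4 were higher and 1 lower, where 29.1% of all genes were higher and 21.8% lower.

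Among the 4 reciprocal-cross embryos called parthenogenetic, embryos 1 and 2 stood apart from embryos 3 and 7. Their oocyte-derived transcripts summed to 29212 and 24914 CPM, against 4744 and 5297 CPM in embryos 3 and 7. Their libraries held 3768470 and 3521230 counts, against 1532060 and 1002460. Calls in the reciprocal cross are therefore also given without embryos 1 and 2, by member or as a count for each role. With only embryos 3 and 7 left in that group, calls over all genes also became fewer, as given below.

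As a whole, core, base and lid transcripts took a smaller share of the RNA in embryos called parthenogenetic. Summed over these 31 genes, 2PN embryos of C57BL/6 x JF1/Ms ran from 2711 to 9361 CPM with a median of 6025, and 1PN embryos from 1974 to 7893 CPM with a median of 6820. The 1PN embryos called parthenogenetic ran from 1822 to 5948 CPM with a median of 3994. Reciprocal-cross 2PN embryos ran from 1302 to 7198 CPM with a median of 4278, the 1PN embryos had 5131, 7978 and 5786 CPM, and those called parthenogenetic had 1846, 1936, 1919 and 1287 CPM. C57BL/6 parthenotes ran from 2078 to 7398 CPM with a median of 4401. The 4 reciprocal-cross embryos called parthenogenetic overlapped the 2PN embryos of their cross and their 8 counterparts in the other cross, and lay below every embryo of the other 4 groups. All other pairs of groups overlapped. CPM gives a share of each library, so a smaller share can mean fewer of these transcripts or more of other RNA. Amounts per embryo were not measured, and these cannot be told apart.

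**Figure D1:**
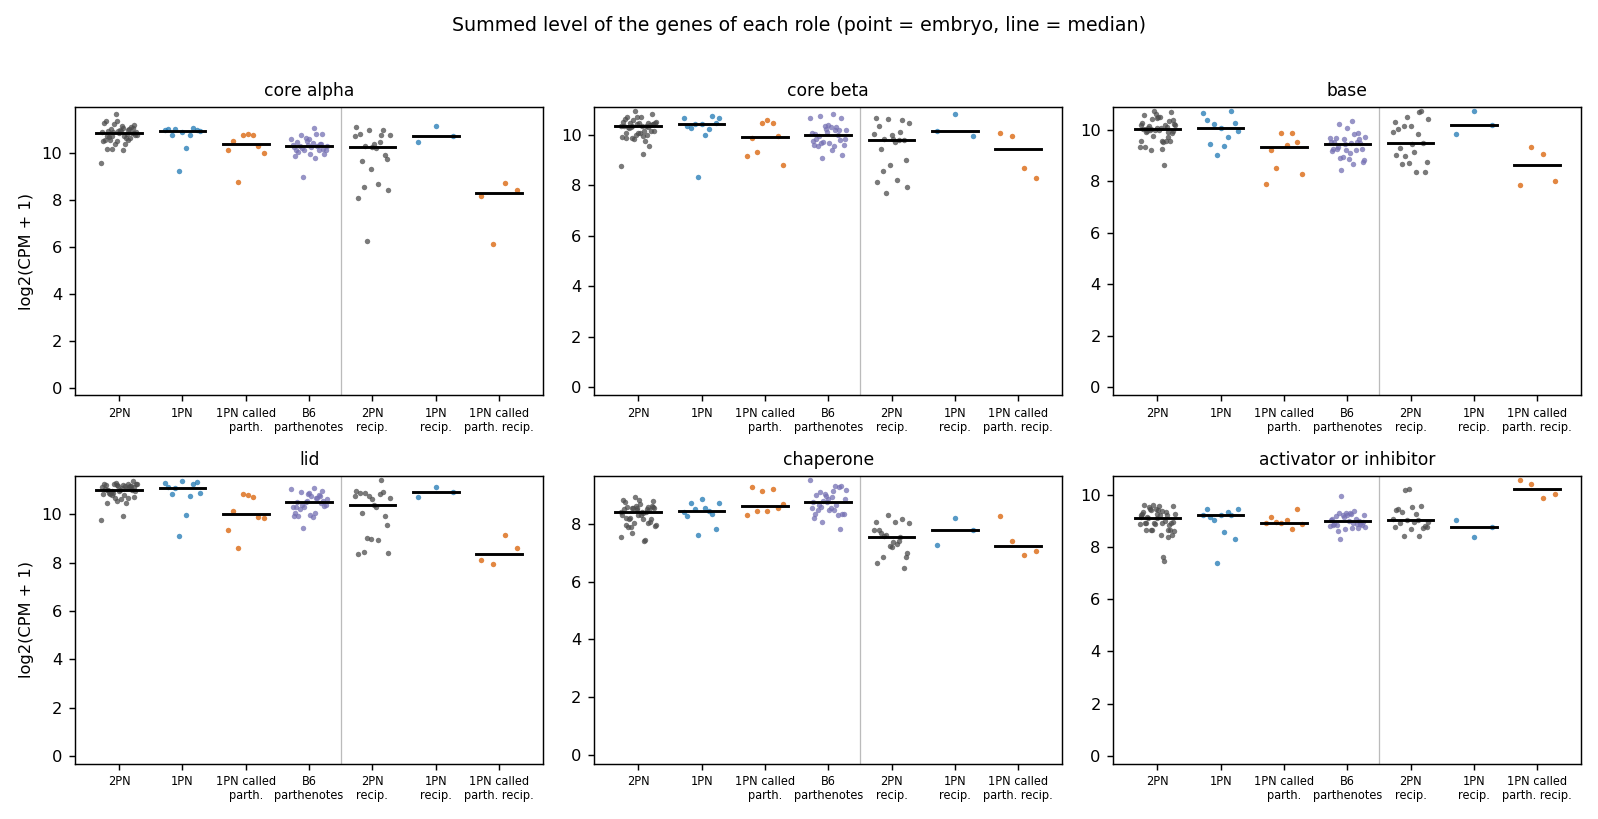
Summed CPM of the proteasome genes of each role, as log2(CPM + 1), in each embryo (points) of the 7 groups, with the group median as a black line; "recip." marks JF1/Ms x C57BL/6. Median sums of the alpha, beta, base and lid genes lie lower in embryos called parthenogenetic than in 2PN embryos of the same cross, while those of the chaperones in C57BL/6 x JF1/Ms do not.

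In 1PN embryos, no proteasome gene passed the test against 2PN embryos over both crosses. Tested with edgeR's quasi-likelihood test and Benjamini-Hochberg adjustment at 0.05 over 22785 genes, none of 49 members was higher or lower, where 0.101% of all genes were called higher and 0% lower. DESeq2 and limma voom also called none. At an unadjusted p under 0.05 there were 2 members, the chaperone genes Psmg4 and Psmd9, where 4.91% of all genes were below that value. The median log2 fold change was 0.11 over the members and -0.02 over all genes. For Psmb3 the difference was 0.02 with an interval from -0.61 to 0.65 on the log2 scale.

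In 1PN embryos called parthenogenetic, 26 of 49 members were lower and 5 higher than in 2PN embryos, over both crosses. Of all genes, 18.3% were called lower and 26.6% higher. The median log2 fold change was -0.87 over the members and 0.22 over all genes. Of the 31 core, base and lid genes, 21 fell and 2 rose. Against 1PN embryos of the same crosses, 28 of 49 members were lower and 4 higher, where 15.5% of all genes were called lower and 20.6% higher. Without embryos 1 and 2 of the reciprocal cross 25 were lower and 0 higher in edgeR's test, and 3 were higher at an unadjusted p under 0.05. Of all 24469 genes tested without them, 2946 were called lower and 3655 higher. Both comparisons use the same embryos called parthenogenetic, so they are not independent of each other.

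Within C57BL/6 x JF1/Ms, 17 of 50 members were lower and 3 higher in the 8 embryos called parthenogenetic, where 13.2% of all genes were called lower and 18.5% higher. The median log2 fold change was -0.69 over the members, or -0.65 without Psmb8 and Psmb9, which had no count in those 8 embryos, and 0.19 over all genes. With libraries scaled by total counts alone, 11 members were lower and 4 higher, and with RLE size factors 5 were higher. Both limma voom and edgeR's legacy fit called 1 member higher. The members' median minus that of all genes was -0.88 with TMM factors, -0.88 with total counts and -0.92 with RLE factors. Within the reciprocal cross, 26 members were lower and 8 higher, where 20.1% of all genes were called lower and 14.7% higher. The median was -1.96 over the members, or -1.73 without Psmb8 and Psmb9, and -0.64 over all genes. Without embryos 1 and 2 of the reciprocal cross, 9 members were lower and none higher in edgeR's test there, with 2 higher at an unadjusted p under 0.05. Of all 26116 genes tested there, 856 were called lower and 746 higher. Over both crosses 25 members were lower and 3 higher without those embryos, where 3507 of 24469 genes were called lower and 4919 higher. With RLE size factors 8 members were higher over both crosses.

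**Figure D2:**
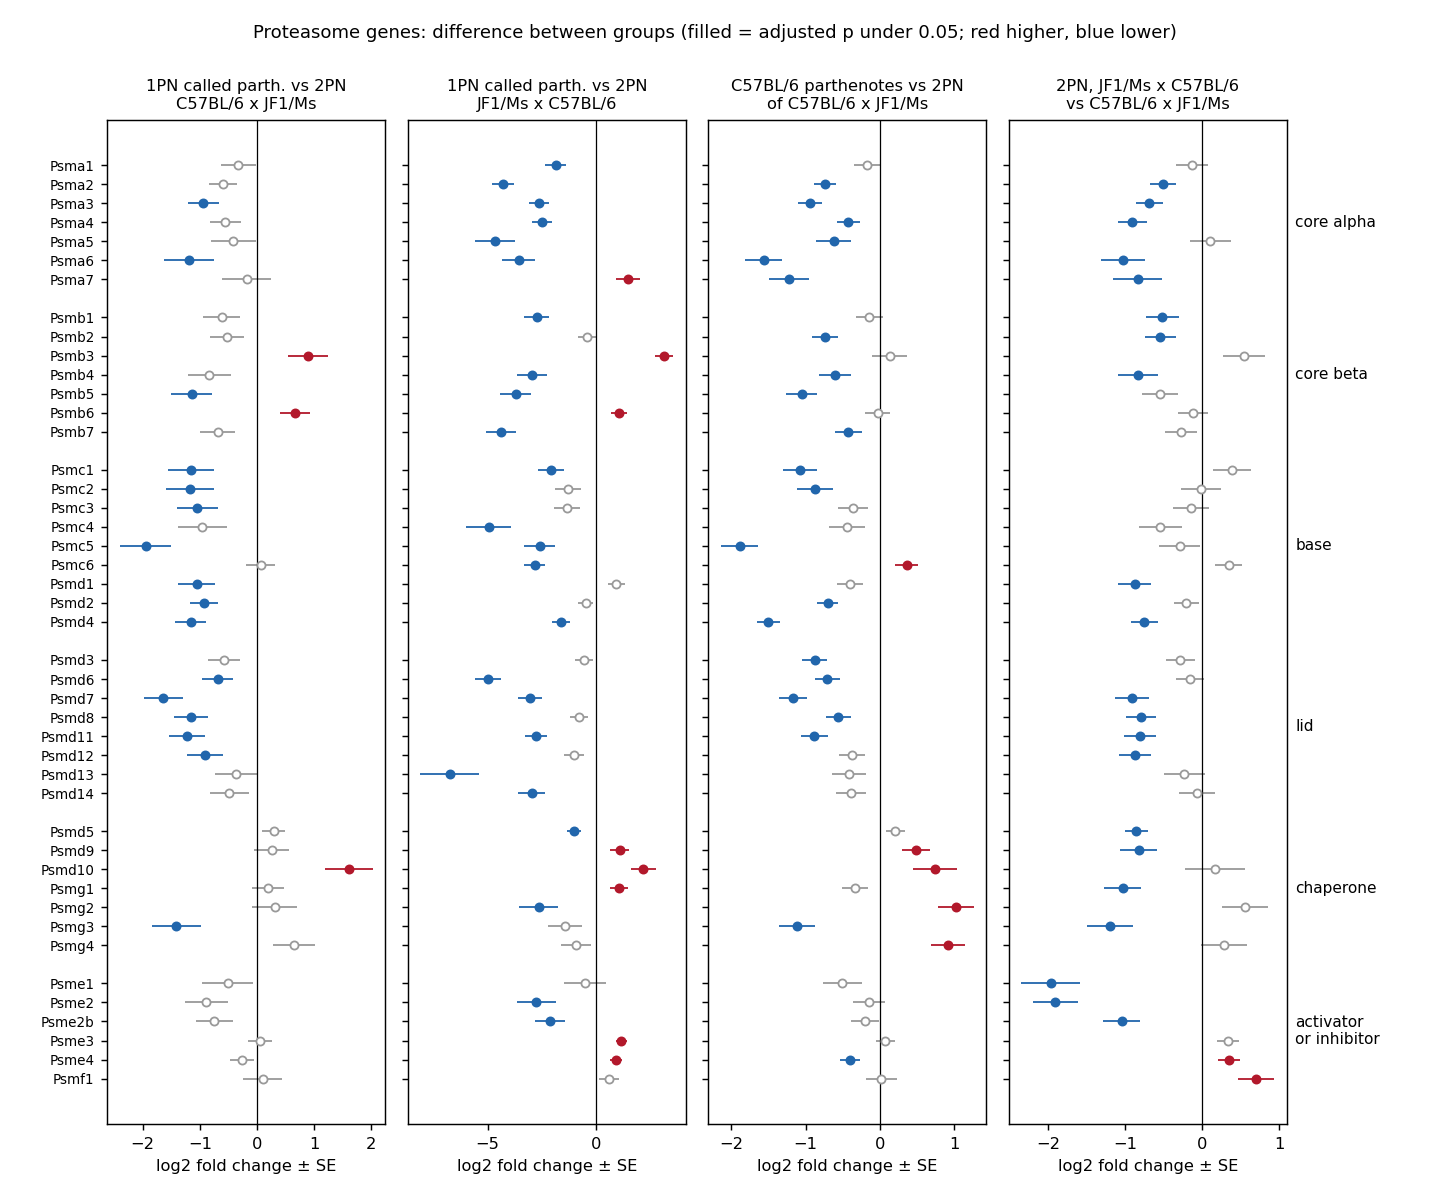
Log2 fold change ± SE of each core, base, lid, chaperone and activator gene in 4 comparisons, on a scale that differs between panels; filled points had an adjusted p under 0.05, red higher and blue lower. Most points lie left of 0, with Psmb3 and Psmb6 to the right in embryos called parthenogenetic of both crosses.

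The promoters of these genes were read as background to genes that moved together and in opposite directions. RefSeq entries on GRCm38.p6 matched 42 of the 50 members, and the 250 bases before each start were searched on both strands, as in 27025 genes overall. The ETS core CCGGAAG was in 12 of 42 members (28.6%) and in 7.05% of all promoters. The palindromic site of nuclear respiratory factor 1 was in 6 members (14.3%) and in 3.86% of all promoters. Those 6 were Psma2, Psma3, Psma4, Psmc4, Psmc5 and Psmd14, and all were among the 22 matched members lower in embryos called parthenogenetic over both crosses, with none among the other 20. The ETS core was in 8 of those 22 and 4 of the 20, CCAAT in 8 and 7, the antioxidant response element in 2 and 3, and TATAAA in 2 and 2. These splits are descriptions and were not tested. The antioxidant response element TGACNNNGC, through which Nfe2l1 is known to raise proteasome genes, was in 5 members (11.9%) and in 10.1% of all promoters. CCAAT was in 15 members (35.7%) and in 34.5% of all promoters, and TATAAA in 4 (9.52%) and in 12.97%. A match describes letters in a window and shows no binding.
The 100 bases before the start are shown for 6 members that stand for the opposite directions and the motifs. Psmb3 (chr11:97703334-97703433, plus strand) rose and holds 2 CCAAT boxes, in capitals. Psme4 (chr11:30771675-30771774, plus strand) went up with oocyte-derived transcripts between 2PN embryos of each cross, as given below, and holds an ETS core. Psmc5 (chr11:106256085-106256184, plus strand) and Psmd14 (chr2:61711594-61711693, plus strand) fell and hold the palindrome. Psmd11 (chr11:80428515-80428614, plus strand) fell and holds an ETS core on the opposite strand, and Psmb5 (chr14:54617996-54618095, minus strand) fell and holds the antioxidant response element. Each is written 5′ to 3′ on its gene's strand, with the named motif in capitals.
Psmb3: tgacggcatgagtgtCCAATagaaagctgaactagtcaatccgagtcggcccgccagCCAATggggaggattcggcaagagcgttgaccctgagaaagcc
Psme4: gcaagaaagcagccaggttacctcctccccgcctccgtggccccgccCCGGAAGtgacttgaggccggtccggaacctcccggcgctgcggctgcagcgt
Psmc5: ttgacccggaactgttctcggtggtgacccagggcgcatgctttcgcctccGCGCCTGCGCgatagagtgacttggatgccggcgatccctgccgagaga
Psmd14: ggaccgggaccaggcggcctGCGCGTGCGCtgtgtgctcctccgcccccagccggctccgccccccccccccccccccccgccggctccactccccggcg
Psmd11: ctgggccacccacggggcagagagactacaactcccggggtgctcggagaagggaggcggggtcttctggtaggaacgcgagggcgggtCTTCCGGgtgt
Psmb5: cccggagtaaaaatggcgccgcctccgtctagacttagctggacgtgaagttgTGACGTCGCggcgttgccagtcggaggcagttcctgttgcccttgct

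Psmb3, a beta subunit with no peptide-cutting site of its own, rose where most of the family fell. Its level in C57BL/6 x JF1/Ms ran from 1.51 to 66.4 CPM with a median of 14.2 in 2PN embryos, and from 8.64 to 30.1 CPM with a median of 19.97 in 1PN embryos. In the embryos called parthenogenetic it ran from 15.4 to 102 CPM with a median of 23.8. All 8 lay above the 2PN median, yet 2PN embryos reached levels inside their range. The log2 fold change was 0.89 ± 0.35 (SE; edgeR adjusted p = 0.0421). This call sat at the threshold: it was lost with limma voom (0.96, adjusted p = 0.068), with edgeR's legacy fit (0.92, adjusted p = 0.067) and with the libraries of the first listing alone (0.89, adjusted p = 0.064).

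In the reciprocal cross the rise of Psmb3 was larger and uneven. The 2PN embryos ran from 5.63 to 61.8 CPM with a median of 27.3, and the 1PN embryos had 19.5, 51.5 and 18.6 CPM. The embryos called parthenogenetic had 503 and 469 CPM in embryos 1 and 2, and 57.4 and 38.9 CPM in embryos 3 and 7. Only embryos 1 and 2 exceeded every 2PN embryo. The log2 fold change was 3.17 ± 0.43 (SE; edgeR adjusted p = 2.47e-09) with all 4 embryos, and 0.74 without embryos 1 and 2, which did not pass (adjusted p = 0.71). Over both crosses Psmb3 rose by 2.00 ± 0.29 (SE; edgeR adjusted p = 6.6e-08; above the 2PN median in 12 of 12 embryos) and by 0.91 without those embryos (adjusted p = 0.014). Against 1PN embryos over both crosses, Psmb3 was not called higher without embryos 1 and 2.

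Psmb6, the core subunit with caspase-like activity, was the only other core gene to rise in both crosses. In the cross C57BL/6 x JF1/Ms it ran from 10.6 to 211 CPM with a median of 61.6 in 2PN embryos and from 48.5 to 236 CPM with a median of 119 in those called parthenogenetic. Its log2 fold change was 0.66 ± 0.26 (SE; edgeR adjusted p = 0.04), and with limma voom 0.65 (adjusted p = 0.056). For the reciprocal cross, 2PN embryos ran from 21.6 to 175 CPM with a median of 57.1, and embryos 1, 2, 3 and 7 had 214, 234, 84.2 and 59.9 CPM. All 4 were above the 2PN median, and again only embryos 1 and 2 exceeded every 2PN embryo. The log2 fold change was 1.10 ± 0.36 (SE; edgeR adjusted p = 0.0118), and 0.09 without embryos 1 and 2 (adjusted p = 0.98). Over both crosses Psmb6 rose by 0.89 ± 0.22 (SE; edgeR adjusted p = 0.000599; 11 of 12 embryos) and by 0.61 without them (adjusted p = 0.044). Against 1PN embryos over both crosses, 2 beta genes were called higher with all embryos and 0 without embryos 1 and 2.

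**Figure D3:**
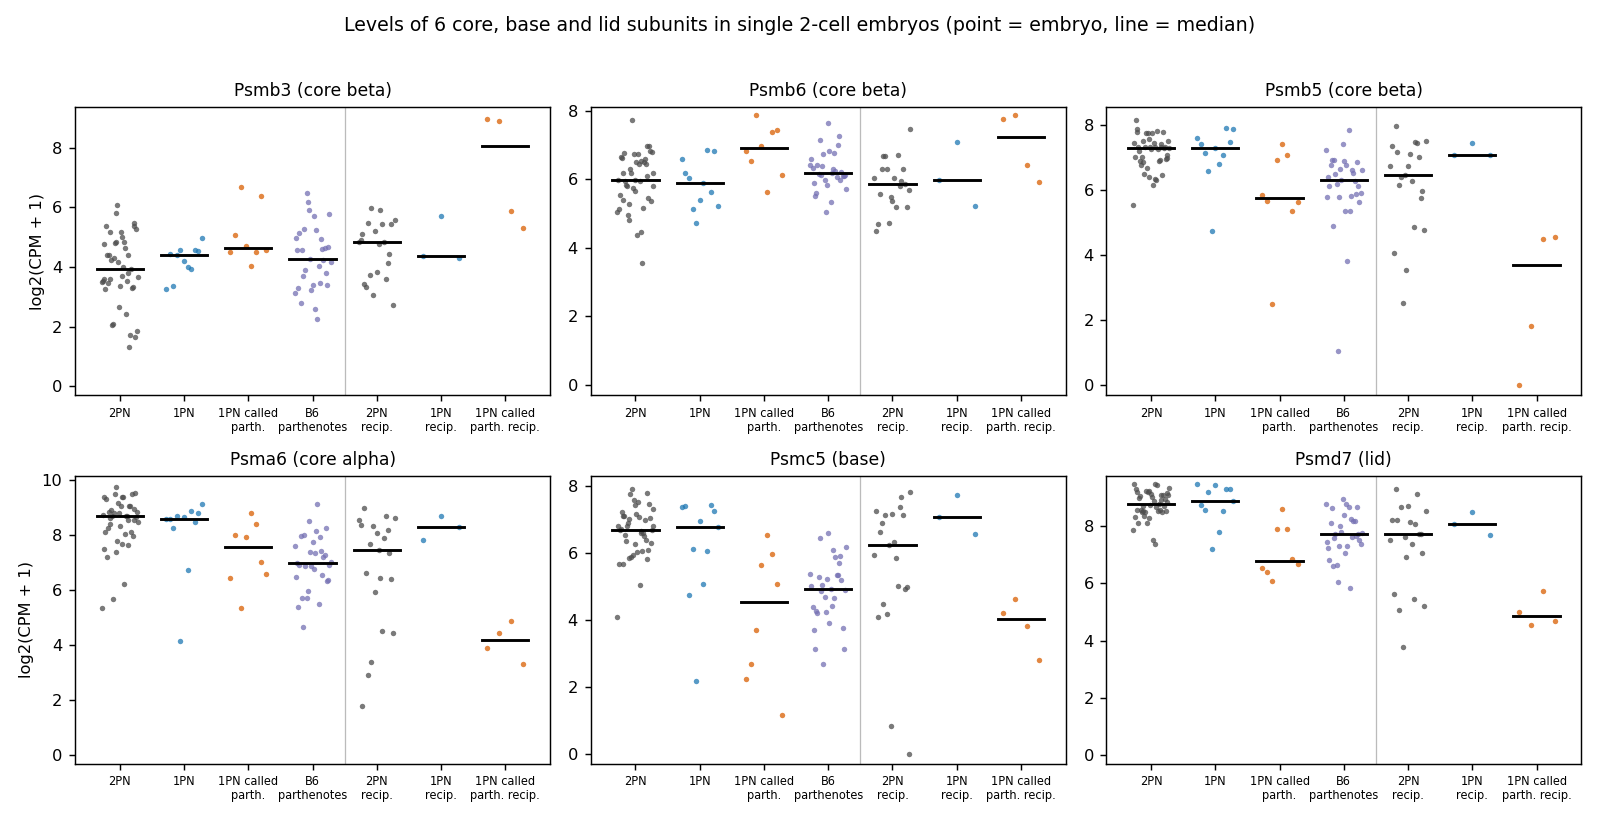
Level of 6 core, base and lid genes as log2(CPM + 1) in each embryo (points) of the 7 groups, with the group median as a black line; "recip." marks JF1/Ms x C57BL/6. In embryos called parthenogenetic the medians of Psmb3 and Psmb6 lie above, and those of Psmb5, Psma6, Psmc5 and Psmd7 below, the 2PN median of their cross, with 2 embryos of the reciprocal cross far above the rest for Psmb3.

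The other beta subunits tended the opposite way. Of the 7 beta genes 4 were lower over both crosses: Psmb5 by -1.50 ± 0.32 (SE; edgeR adjusted p = 7.8e-05), Psmb7 by -1.17 ± 0.32 (adjusted p = 0.00163), Psmb4 by -1.16 ± 0.35 (adjusted p = 0.00503) and Psmb1 by -0.98 ± 0.31 (adjusted p = 0.00611). Psmb5 carries the chymotrypsin-like site and Psmb7 the trypsin-like site, so the 3 catalytic subunits did not move alike. Psmb5 in C57BL/6 x JF1/Ms ran from 46.4 to 285 CPM with a median of 156 in 2PN embryos and from 4.73 to 172 CPM with a median of 53.3 in embryos called parthenogenetic. Its reciprocal-cross 2PN median was 87.6 CPM, in a range from 4.76 to 253, and embryos 1, 2, 3 and 7 had 0, 2.56, 21.5 and 22.9 CPM. Psmb5 was thus low in all 4 embryos, although the lowest 2PN embryo lay among them. Of the values of Psmb5 above 0, 76.6% were not whole, so the authors' counting may have split its reads with another gene.

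Psmb7 followed the same course in the reciprocal cross. The 2PN embryos ran from 3.70 to 232 CPM with a median of 106, and embryos 1, 2, 3 and 7 had 5.31, 0.568, 15.7 and 0.998 CPM. Its log2 fold change of -4.38 ± 0.68 (SE; edgeR adjusted p = 1.24e-07) became -3.41 without embryos 1 and 2 (adjusted p = 0.0078). Within C57BL/6 x JF1/Ms, Psmb5 alone of the beta genes was called lower, at -1.14 ± 0.36 (SE; edgeR adjusted p = 0.0107). Of the 4 beta genes called lower in the reciprocal cross, Psmb7 was the 1 that passed without embryos 1 and 2, and Psmb5 was at -2.29 (adjusted p = 0.083).

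Among the alpha subunits, which form the gated entrance rings, 4 of 7 were lower over both crosses. Psma3 fell by -1.24 ± 0.24 (SE; edgeR adjusted p = 1.27e-05; below the 2PN median in 12 of 12 embryos), Psma6 by -1.56 ± 0.38 (adjusted p = 0.000562; 11 of 12) and Psma2 by -1.07 ± 0.27 (adjusted p = 0.000951; 10 of 12). Psma6 ran from 40.1 to 864 CPM with a median of 406 in 2PN embryos of C57BL/6 x JF1/Ms, and from 39.9 to 444 CPM with a median of 186 in those called parthenogenetic. Its reciprocal-cross 2PN range was 2.50 to 500 CPM with a median of 176, and embryos 1, 2, 3 and 7 had 14.1, 20.7, 28.1 and 8.98 CPM. All 4 of these embryos lay below the 2PN median, and some 2PN embryos lay as low.

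Within C57BL/6 x JF1/Ms, Psma3 and Psma6 were the 2 alpha genes called lower. Within the reciprocal cross 6 of 7 were, led by Psma2 at -4.30 ± 0.51 (SE; edgeR adjusted p = 2.64e-11). Without embryos 1 and 2 only Psma2 (-3.61, adjusted p = 4.31e-05) and Psma6 (-3.39, adjusted p = 0.0456) passed, and Psma1, Psma3, Psma4 and Psma5 did not. Psma2 ran from 14.3 to 328 CPM with a median of 193 in 2PN embryos, against 0, 13.6, 24.8 and 3.99 CPM in embryos 1, 2, 3 and 7. Psma7 was the exception there. It had 234, 11.4, 27.4 and 9.98 CPM in those embryos against a 2PN median of 20.8 CPM and a highest 2PN value of 95.7 CPM. Its log2 fold change of 1.505 ± 0.55 (SE; edgeR adjusted p = 0.0248) rested on embryo 1, and without that embryo it was -0.51.

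In the base, 7 of 9 genes were lower over both crosses. Psmc5, one of the ATPases, fell by -2.05 ± 0.38 (SE; edgeR adjusted p = 8.97e-06; 12 of 12 embryos), and Psmd4, a receptor for ubiquitin chains, by -1.21 ± 0.22 (adjusted p = 5.83e-06; 12 of 12). Psmc5 ran from 15.9 to 238 CPM with a median of 102 in 2PN embryos of C57BL/6 x JF1/Ms, and from 1.21 to 91.3 CPM with a median of 22.1 in those called parthenogenetic. The reciprocal-cross 2PN range was 0 to 222 CPM with a median of 74.1, against 17.5, 23.6, 13.1 and 5.99 CPM. The groups overlapped, but all 12 embryos called parthenogenetic lay below the 2PN median of their cross.

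Within C57BL/6 x JF1/Ms the base was the role with most calls, 7 of 9 lower, Psmd1 among them. Psmd1, a scaffold of the base, fell by -1.06 ± 0.32 there (SE; edgeR adjusted p = 0.00736). In the reciprocal cross Psmd1 had 42.5, 273, 106 and 58.9 CPM in embryos 1, 2, 3 and 7 against a 2PN median of 43.3 CPM, and its difference of 0.95 ± 0.40 did not pass (edgeR adjusted p = 0.0504). Psmc6, an ATPase, was lower in the reciprocal cross by -2.82 ± 0.49 (SE; edgeR adjusted p = 1.99e-06), with 2.39, 12.8, 17.6 and 33.9 CPM against a 2PN median of 82.5 CPM. Its difference in C57BL/6 x JF1/Ms was 0.06 ± 0.25, with an interval from -0.43 to 0.55. Of 5 base genes called lower in the reciprocal cross, Psmc6 (-1.96, edgeR adjusted p = 0.0415) and Psmd4 (-2.001, adjusted p = 0.0193) passed without embryos 1 and 2, and Psmc5 was at -3.22 (adjusted p = 0.0689). The differences between the crosses are tested below.

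In the lid, 6 of 8 genes were lower over both crosses. Psmd7, the partner of the deubiquitinase, had the smallest p of any member that fell, at -1.91 ± 0.29 (SE; edgeR adjusted p = 1.3e-07; 12 of 12 embryos). It ran from 166 to 711 CPM with a median of 439 in 2PN embryos of C57BL/6 x JF1/Ms, and from 66.3 to 385 CPM with a median of 108 in those called parthenogenetic. For the reciprocal cross the 2PN range was 12.7 to 631 CPM with a median of 210, against 30.8, 22.4, 51.6 and 24.9 CPM in embryos 1, 2, 3 and 7. Psmd7 was lower in each cross and remained so without embryos 1 and 2 (-2.67 in the reciprocal cross, edgeR adjusted p = 0.019). Psmd11 fell by -1.50 ± 0.30 (SE; edgeR adjusted p = 2.45e-05), though 81.6% of its values above 0 were not whole, and Psmd6 by -1.18 ± 0.30 (adjusted p = 0.000839).

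Psmd6 was the 1 member whose values did not overlap between groups in the reciprocal cross, where the values of the groups did not overlap for 0.648% of all genes tested on the lower side and 0.254% on the higher side. Its 2PN embryos ran from 31.97 to 295 CPM with a median of 175, and embryos 1, 2, 3 and 7 had 0, 14.2, 1.31 and 4.99 CPM. The log2 fold change was -5.00 ± 0.61 (SE; edgeR adjusted p = 7.65e-11), and -5.97 without embryos 1 and 2 (adjusted p = 7.39e-06). In C57BL/6 x JF1/Ms, Psmd6 ran from 73.4 to 291 CPM with a median of 195 in 2PN embryos and from 37.7 to 319 CPM with a median of 115 in those called parthenogenetic, at -0.69 ± 0.28 (SE; edgeR adjusted p = 0.0476). Psmd13 had no count in embryos 1 and 2 and 1 count each in embryos 3 and 7, against a 2PN median of 20.4 CPM, and was called lower in the reciprocal cross, a call lost without embryos 1 and 2 (edgeR adjusted p = 0.0829). Psmd14, the deubiquitinase, had 5.57, 0.284, 71.2 and 87.8 CPM against a 2PN median of 255 CPM there, at -2.97 ± 0.62 (SE; edgeR adjusted p = 5.97e-05). Without embryos 1 and 2 that difference was -1.74 and did not pass (adjusted p = 0.138). Over both crosses Psmd14 fell by -0.86 ± 0.33 (edgeR adjusted p = 0.0272), and without embryos 1 and 2 the difference of -0.63 did not pass. Of 5 lid genes called lower in the reciprocal cross, Psmd6, Psmd7 and Psmd11 passed without those embryos.

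Assembly chaperones differed between the crosses in their summed level. Over the 7 genes the median was 337 CPM in 2PN, 349 in 1PN and 393 in those called parthenogenetic, for C57BL/6 x JF1/Ms. In the reciprocal cross the 2PN median was 184 CPM, in a range from 87.3 to 317, the 1PN embryos had 155, 293 and 221 CPM, and embryos 1, 2, 3 and 7 had 312, 170, 121 and 133 CPM. There 3 of these 4 embryos lay below the 2PN median, all within the 2PN range, and the median log2 fold change of the 7 genes was -0.90, against -0.64 over all genes. Of 7, Psmd10 and Psmd9 were higher and Psmg3 lower over both crosses. Psmd10, a chaperone of the base also known as gankyrin and located on the X chromosome, rose by 1.89 ± 0.36 (SE; edgeR adjusted p = 1.04e-05; 9 of 12 embryos). Its C57BL/6 x JF1/Ms levels ran from 0 to 18.2 CPM with a median of 3.34 in 2PN embryos, from 0.273 to 12.1 CPM with a median of 4.59 in 1PN embryos, and from 0.532 to 31.1 CPM with a median of 15.97 in those called parthenogenetic (1.61 ± 0.41; adjusted p = 0.00159). In the reciprocal cross Psmd10 had 45.1 and 45.2 CPM in embryos 1 and 2 and no count in embryos 3 and 7, against a 2PN range of 0 to 27.7 CPM. The rise there rested on embryos 1 and 2, while over both crosses it was 1.39 without them (adjusted p = 0.0044). Psmd10 overlaps Atg4a and the sources used here do not give the use of strand, so reads of the 2 genes may not have been told apart.

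Psmd9, another chaperone of the base, rose by 0.63 ± 0.26 over both crosses (SE; edgeR adjusted p = 0.0376), a call lost without embryo 1 of the reciprocal cross (0.19), which had 197 CPM against 32.1, 5.22 and 13.97 CPM in embryos 2, 3 and 7. Psmg3, which with Psmg4 helps to form the alpha ring, fell by -1.33 ± 0.38 (SE; edgeR adjusted p = 0.0026). Psmg3 in C57BL/6 x JF1/Ms ran from 0 to 98.4 CPM with a median of 29.6 in 2PN embryos, and from 0 to 41.3 CPM with a median of 10.9 in those called parthenogenetic. Its partner Psmg4 had medians of 6.69 and 9.17 CPM in the same groups and was not called. For the reciprocal cross Psmd10, Psmd9 and Psmg1 were called higher, and Psmd5 (-1.001 ± 0.33; edgeR adjusted p = 0.012) and Psmg2 (-2.65 ± 0.91; adjusted p = 0.0156) lower. None of these 5 calls held without embryos 1 and 2, where Psmg1 was at 0.26 (edgeR adjusted p = 0.93), Psmd5 at -0.51 (adjusted p = 0.64), Psmg2 at -0.89 (adjusted p = 0.79) and Psmd9 at -1.65 (adjusted p = 0.31).

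Of the activators, Psme3 was higher and Psme2 and Psme2b were lower over both crosses. Psme3, the nuclear activator PA28 gamma, rose by 0.57 ± 0.19 (SE; edgeR adjusted p = 0.009), but the rise came from the reciprocal cross. There it had 675, 300, 136 and 105 CPM in embryos 1, 2, 3 and 7 against a 2PN range of 28.1 to 583 CPM and a median of 96.2. Without embryo 1 the difference over both crosses was 0.27 and without embryos 1 and 2 it was 0.04, neither of which passed. Within the reciprocal cross the difference without embryos 1 and 2 was -0.084. Medians in C57BL/6 x JF1/Ms were 96.6 CPM in 2PN embryos, 96.4 in 1PN embryos and 111 in those called parthenogenetic, with a log2 difference of 0.05 and an interval from -0.35 to 0.46.

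Psme4, the activator PA200, differed little in C57BL/6 x JF1/Ms and was high in all 4 embryos of the reciprocal cross. In the former it ran from 60.8 to 594 CPM with a median of 306 in 2PN embryos and from 221 to 397 CPM with a median of 276 in those called parthenogenetic (-0.26, interval from -0.68 to 0.16). In the latter the 2PN embryos ran from 148 to 1001 CPM with a median of 374, and embryos 1, 2, 3 and 7 had 756, 956, 754 and 883 CPM. Its log2 fold change was 0.94 ± 0.28 (SE; edgeR adjusted p = 0.00464), and it kept its size without embryos 1 and 2 (0.95) but did not pass (adjusted p = 0.13). Psme2, which pairs with Psme1 in the interferon-inducible activator, had 2.92, 1.14, 3.92 and 0.998 CPM in those embryos against a 2PN median of 6.33 CPM. Its call in the reciprocal cross, and that of Psme2b, were lost without embryos 1 and 2 (-2.39 and -2.38, edgeR adjusted p = 0.41 and 0.298). Psme2b is a copy of Psme2, and reads may be shared between them, so their split is uncertain.

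**Figure D4:**
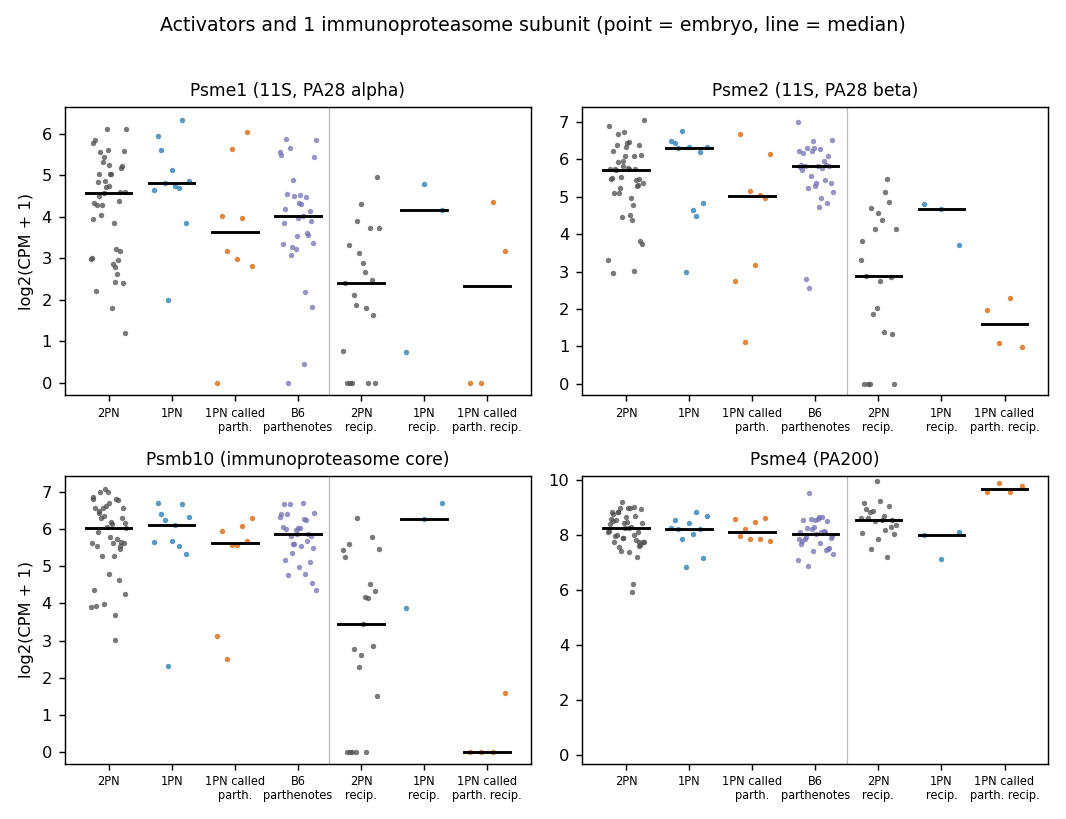
Level of Psme1, Psme2, Psmb10 and Psme4 as log2(CPM + 1) in each embryo (points) of the 7 groups, with the group median as a black line; "recip." marks JF1/Ms x C57BL/6. Psme1, Psme2 and Psmb10 lie lower in 2PN embryos of the reciprocal cross than in those of C57BL/6 x JF1/Ms, while Psme4 does not.

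The core subunits with tissue-restricted expression were at or near 0, apart from Psmb10. Psmb8 and Psmb9, of the immunoproteasome, had a median of 0 CPM in every group and no count in any of the 12 1PN embryos called parthenogenetic. Psma8, known from the testis, had medians of at most 0.285 CPM in the groups of 8 or more embryos, and Psmb11, known from the thymus, of at most 5.03 CPM. Psmb10, the third immunoproteasome subunit, ran from 7.10 to 134 CPM with a median of 64.2 in 2PN embryos of C57BL/6 x JF1/Ms, and from 4.73 to 77.2 CPM with a median of 48.4 in those called parthenogenetic. Its reciprocal-cross 2PN median was 9.84 CPM and embryos 1, 2 and 3 had no count, with 2.00 CPM in embryo 7. It was called lower there, and not without embryos 1 and 2 (edgeR adjusted p = 0.131). Psmc3ip, which is no subunit, fell by -1.47 ± 0.30 over both crosses (SE; edgeR adjusted p = 5.01e-05).

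The difference between the crosses in the parthenogenetic effect was tested as the effect in C57BL/6 x JF1/Ms minus that in the reciprocal cross. It passed for 24 of 50 members, 20 above 0 and 4 below, where 11.8% of all genes passed above 0 and 4.09% below. The median difference was 1.11 over the members and 0.68 over all genes. Differences above 0 included Psmd6 (4.31), Psma2 (3.70) and Psmb7 (3.69), and those below 0 were Psmb3 (-2.28), Psmd1 (-2.01), Psme4 (-1.20) and Psme3 (-1.14). Of the 31 core, base and lid genes, 16 passed above 0 and 2 below. Psmd1 fell in C57BL/6 x JF1/Ms and not in the reciprocal cross, and Psmc5 (0.64), Psmd4 (0.44) and Psmd7 (1.42), which fell over both crosses, had differences that did not pass. The base had a median difference of 0.44, below that of all genes. Without embryos 1 and 2 of the reciprocal cross, only Psma2 (3.09) and Psmd6 (5.34) passed, and the difference for Psmb3 was 0.22. Calls over all genes also became fewer there, with 223 above 0 and 340 below of 26116 tested, against 2875 and 998 of 24380. The members' median difference was 0.96 without those embryos, and that of all genes 0.77. Leaving out embryo 1 alone left 7 members above 0 and 2 below, where 1174 and 616 of 24320 genes passed. Leaving out embryo 2 alone left 9 and 0, where 1531 and 537 of 24289 genes passed. Between embryos 1 and 2 on one side and 3 and 7 on the other, Psma1 was lower (11.4 and 8.52 against 133 and 175 CPM), as were Psmb1 (0 and 8.80 against 75.7 and 116 CPM) and Psmd12 (4.51 and 11.1 against 213 and 201 CPM). Psmb2 ran the other way, with 335 and 245 against 144 and 61.9 CPM.

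Parthenotes of C57BL/6 also had less of most subunits than 2PN embryos of C57BL/6 x JF1/Ms. Of 50 members 24 were lower and 6 higher, where 21.8% of all genes were called lower and 29.1% higher. The median log2 fold change was -0.42 over the members and 0.18 over all genes. With total counts 17 were lower and 8 higher, so that the share of called members that were higher went from 20% to 32%, and with RLE size factors it was 28%. With limma voom 3 were higher. The median of all genes shifted to 0.41 and 0.38 under these scalings, and the members' median minus that of all genes stayed at -0.60, -0.61 and -0.62 with TMM, total counts and RLE. The 2PN embryos are the same as in the comparison of embryos called parthenogenetic above, so the 2 sets of values are set side by side only.

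In these parthenotes Psmd4 ran from 10.3 to 190 CPM with a median of 103, against 65.0 to 371 CPM with a median of 248 in 2PN embryos (-1.50 ± 0.16, SE; edgeR adjusted p = 5.79e-15). All 31 parthenotes lay below the 2PN median. The same held for Psmc5, from 5.44 to 94.4 CPM with a median of 28.9 (-1.89 ± 0.25; adjusted p = 2.02e-10). In the core, Psma6 ran from 24.3 to 555 CPM with a median of 126 (-1.57 ± 0.25; edgeR adjusted p = 7.16e-08) and Psmb5 from 1.08 to 231 CPM with a median of 79.6 (-1.05 ± 0.21; adjusted p = 8.35e-06). In the lid, Psmd7 ran from 55.8 to 489 CPM with a median of 208 (-1.17 ± 0.19; edgeR adjusted p = 7.99e-08). By role 6 of 7 alpha, 4 of 7 beta, 5 of 9 base and 5 of 8 lid genes were lower.

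Psmb3 was not called in C57BL/6 parthenotes. It ran from 3.74 to 88.8 CPM with a median of 18.1, and the log2 difference from 2PN embryos was 0.14 with an interval from -0.33 to 0.60. For Psmb6 the median was 72.2 CPM and the difference -0.03 with an interval from -0.35 to 0.30. Of the 6 members that rose, 4 were chaperones: Psmg2 by 1.029 ± 0.24 (SE; edgeR adjusted p = 0.000142; 29 of 31 embryos), Psmg4 by 0.92 ± 0.23 (adjusted p = 0.00036), Psmd10 by 0.74 ± 0.30 (adjusted p = 0.0302) and Psmd9 by 0.49 ± 0.19 (adjusted p = 0.0237). Psmg2 had a median of 20.6 CPM against 9.32 CPM in 2PN embryos. The ATPase gene Psmc6 rose by 0.36 ± 0.15 (SE; edgeR adjusted p = 0.0388), with a median of 110 against 68.0 CPM, a call lost with limma voom. Psmb8 was also called higher, from counts in 4 of 31 parthenotes, the highest at 33.6 CPM. Psme4 was lower, by -0.40 ± 0.13 (SE; edgeR adjusted p = 0.00672).

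The embryos called parthenogenetic from C57BL/6 x JF1/Ms were set directly against C57BL/6 parthenotes. In edgeR's test none of 50 members was called in either direction, nor with DESeq2 or limma voom, and 1 was called higher with no filter on low counts, where 3.41% of all genes were called higher and 1.57% lower. At an unadjusted p under 0.05 there were 6 members, where 20.3% of all genes were below that value. The median difference was -0.09 over the members and -0.01 over all genes. For Psmb3 the difference was 0.76 ± 0.37 with an interval from 0.03 to 1.48 (edgeR adjusted p = 0.229), for Psmb6 0.69 ± 0.27 with an interval from 0.16 to 1.21 (adjusted p = 0.114), and for Psma7 1.04 ± 0.42 with an interval from 0.22 to 1.86 (adjusted p = 0.128). These intervals do not include 0 before adjustment, so the test does not show that the groups had the same level of these genes.

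Between 2PN embryos of the crosses, the reciprocal cross had less of 24 of 50 members and more of 2, where 19.1% of all genes were called lower and 18.8% higher. The median log2 fold change was -0.51 over the members and -0.08 over all genes. Psme1, Psme2 and Psmb10, which interferon is known to induce, were among the members called lower. Psme2 ran from 0 to 43.5 CPM with a median of 6.33, against 6.80 to 131 CPM with a median of 51.6 in the other cross (-1.91 ± 0.29, SE; edgeR adjusted p = 2.63e-08; below that median in 21 of 21 embryos). Psme1 ran from 0 to 30.01 CPM with a median of 4.25, against 1.30 to 68.9 CPM with a median of 22.98 (-1.97 ± 0.38; adjusted p = 8.76e-06). Psmb10 ran from 0 to 76.6 CPM with a median of 9.84 against 64.2 CPM (-1.61 ± 0.28; edgeR adjusted p = 1.59e-06). Psmb8 and Psmb9, also known as interferon-inducible, were at or near 0 and not called, and Psmb11, of the thymus, was lower by -2.04 ± 0.54 (edgeR adjusted p = 0.00111). Of 8 other interferon targets tested, 3 were lower, with H2-K1 at -1.35 ± 0.27, and Isg15 was higher, at 1.73 ± 0.46.

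The chaperones Psmd5 (-0.86 ± 0.15, SE; edgeR adjusted p = 9.73e-07) and Psmg1 (-1.04 ± 0.23; adjusted p = 0.000168) were also lower in the reciprocal 2PN embryos, as were Psmg3 and Psmd9. Psmd5 ran from 18.7 to 208 CPM with a median of 105, against 102 to 324 CPM with a median of 206. Among subunits, Psma4 (-0.91 ± 0.19; edgeR adjusted p = 3.5e-05), Psmd4 (-0.75 ± 0.17; adjusted p = 0.00024) and Psmd7 (-0.92 ± 0.22; adjusted p = 0.000315) had the smallest p of their roles. Psmf1, an inhibitor of the core, and Psme4 were the 2 members called higher, by 0.70 ± 0.24 (SE; edgeR adjusted p = 0.0144) and 0.34 ± 0.14 (adjusted p = 0.0493). Neither passed with limma voom, and DESeq2 called 4 members higher. Psmb3 had medians of 27.3 and 14.2 CPM, and its difference of 0.54 ± 0.27 did not pass (edgeR adjusted p = 0.108).

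Members also varied between embryos of 1 group, and this variation was compared with the mean log2(CPM + 1) of the 20 oocyte-derived transcripts. The comparison took members with a mean of at least 10 CPM in each of the 3 groups with over 20 embryos, 131 relations in all. It used 100000-resample permutation tests and Benjamini-Hochberg adjustment over them. Only members were taken, so the counts that passed have no share over all genes beside them. In 2PN embryos of C57BL/6 x JF1/Ms, 3 of 44 members passed with a positive r and 9 with a negative r, and the median r was -0.03, with 21 positive and 23 negative. Without the 2 embryos farthest from the median of the list it was -0.19, with 9 positive and 35 negative. Psme4 had r = 0.64 and rho = 0.50 (permutation adjusted p = 0.00098 and 0.01), and r = 0.43 without those 2 embryos. Psmf1 had r = 0.53 and rho = 0.52 (permutation adjusted p = 0.003 and 0.0077), and r = 0.47 without 2 embryos. The third, Psmd5, went from r = 0.37 to 0.099 without 2 embryos (rho = 0.20; permutation adjusted p = 0.044 and 0.36). On the other side, Psmd11 had r = -0.50 and rho = -0.49 (permutation adjusted p = 0.0048 and 0.012; -0.63 without 2 embryos), and Psmd7 r = -0.49 and rho = -0.43 (adjusted p = 0.0051 and 0.024; -0.52 without 2 embryos).

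In 2PN embryos of the reciprocal cross, 27 of 42 members passed with a negative r and 1 with a positive r, and the median r was -0.59, or -0.55 without 2 embryos. Psma5 had r = -0.80 and rho = -0.73 (permutation adjusted p = 0.00098 and 0.0071; -0.74 without 2 embryos), and Psmd7 r = -0.75 and rho = -0.65 (adjusted p = 0.0016 and 0.016; -0.65 without 2 embryos). Psme4 was the positive one, with r = 0.54 and rho = 0.54 (permutation adjusted p = 0.033 and 0.045; 0.56 without 2 embryos). With CPM scaled by TMM factors, the r of Psme4 did not pass in these embryos. Its relation did not pass in C57BL/6 parthenotes, with r = 0.31 and rho = 0.14 (permutation adjusted p = 0.17 and 0.59; 0.07 without 2 embryos). In C57BL/6 parthenotes, 2 of 45 members passed with a positive r and 8 with a negative r, and the median r was -0.19, or -0.02 without 2 embryos. Several of these rested on few embryos: Psmb5 went from r = -0.59 to -0.33 without 2 embryos (rho = -0.29; permutation adjusted p = 0.0045 and 0.24), and Psmb3 from 0.42 to 0.17 (rho = 0.23; adjusted p = 0.048 and 0.36). Psmb3 had r = 0.35 and 0.34 in the 2PN embryos of C57BL/6 x JF1/Ms and of the reciprocal cross, neither of which passed (permutation adjusted p = 0.054 and 0.23). All members of 1 embryo share a library and its scaling, so these relations are not independent of each other. Whether 27 of 42 differs from the share over all genes was not tested.

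**Figure D5:**
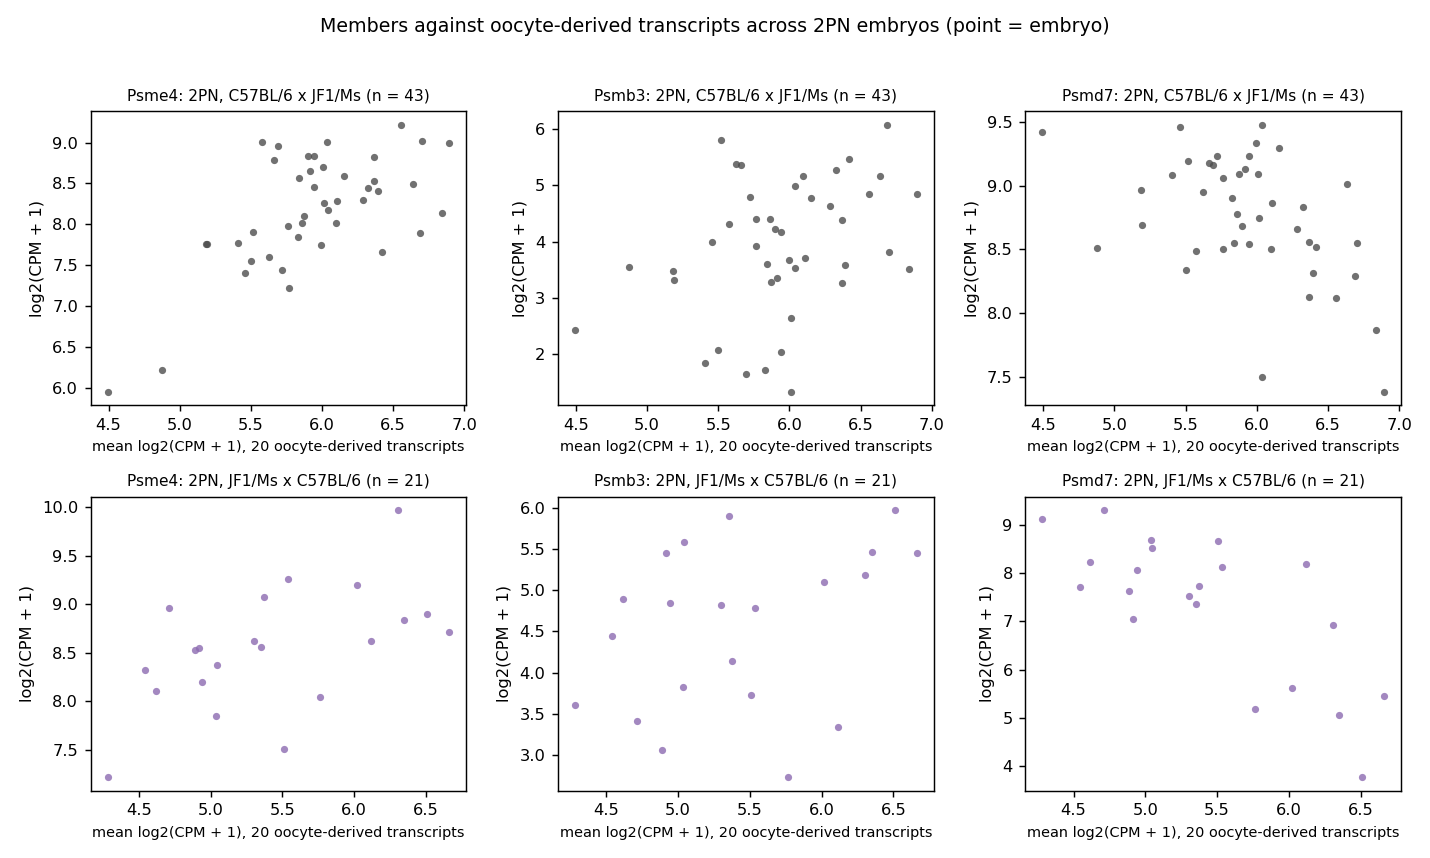
Level of Psme4, Psmb3 and Psmd7 as log2(CPM + 1) against the mean log2(CPM + 1) of 20 oocyte-derived transcripts, in 2PN embryos (points) of C57BL/6 x JF1/Ms (n = 43, upper panels) and JF1/Ms x C57BL/6 (n = 21, lower panels). Psme4 goes up with the oocyte-derived transcripts (r = 0.64 and 0.54) and Psmd7 goes down (r = -0.49 and -0.75).

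The rest of the pathway was mixed in 1PN embryos called parthenogenetic over both crosses. Of 7 other subunits and assembly factors 2 fell and 2 rose. Adrm1, the ubiquitin receptor beside Psmd4, fell by -1.55 ± 0.32 (SE; edgeR adjusted p = 4.4e-05), and Ecpas, a scaffold that binds proteasomes, rose by 0.69 ± 0.18 (adjusted p = 0.0012). Of 6 ubiquitin enzymes bound to the proteasome, the deubiquitinase Uchl5 (0.61 ± 0.21) and the ligase Ube3c (0.62 ± 0.23) rose. Of 10 genes of ubiquitin supply and activation, 4 fell and 2 rose. The conjugating enzymes diverged, with Ube2d2a at 0.98 ± 0.15 (edgeR adjusted p = 1.8e-07) and Ube2l3 at -1.56 ± 0.27 (adjusted p = 1.7e-06). Of 10 genes for delivery of ubiquitinated proteins 3 fell, with Zfand5 at -1.23 ± 0.22. Of 10 transcription regulators of proteasome genes 4 rose and 3 fell, with Stat3 at 1.33 ± 0.28 and Nfyc at -1.26 ± 0.29. In the same comparison 26.6% of all genes were called higher and 18.3% lower. Without embryos 1 and 2 of the reciprocal cross Ube3c did not pass (0.37, edgeR adjusted p = 0.247), and 3 regulators rose and 3 fell.

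The same lists were read in C57BL/6 parthenotes, where 29.1% of all genes were called higher and 21.8% lower, and in reciprocal 2PN embryos, where 18.8% were higher and 19.1% lower. In parthenotes Adrm1 (-1.36 ± 0.19, SE; edgeR adjusted p = 2.2e-09) and Pomp, the chaperone that matures the core (-1.31 ± 0.22; adjusted p = 1.4e-07), were lower, and Txnl1 and Ecpas higher, among 7 genes. Ube2l3 was lower there by -1.58 ± 0.18, and of the 10 delivery genes 6 were lower and 2 higher. Among the 10 regulators 3 were higher and 4 lower, with Nfyc at -1.51 ± 0.18 and Nfe2l2 at 1.63 ± 0.21, a share of higher genes near that of all genes. In reciprocal 2PN embryos 3 regulators were higher and 1 lower, with Nfya, a subunit of the CCAAT-binding factor, at 2.02 ± 0.21 (edgeR adjusted p = 3.3e-14) and Hsf1, the heat shock factor, at 1.36 ± 0.17 (adjusted p = 2.1e-11).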

How the data were processed

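The authors deposited 1 table of estimated counts per gene without scaling. The submitters' processing notes name HISAT2 2.0.5, featureCounts 2.0.0 and, as genome build, GRCm38. Which annotation was used, and how strand and shared reads were treated, is not given by the sources used here. Of the deposited counts above 0, 28.4% were not whole, and all were rounded before testing. Of 43421 genes, 43266 matched a symbol. Of 125 libraries, 1 labelled dead and 3 labelled of low quality were left out.

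Tests used the quasi-likelihood F test of edgeR 4.0.16 (R 4.3.3) with filterByExpr by group, TMM factors and Benjamini-Hochberg adjustment over all genes tested. Comparisons over both crosses came from a fit of the 6 hybrid groups with cross as a term (22785 genes), and the others from a fit of the means of 7 groups (24380 genes). Intervals are approximate 95% intervals from the SE. DESeq2 1.42.0, limma 3.58.1 (voom), other scalings, no filter and left-out embryos were alternatives, and the test was also run on simulated data. The simulation gave all embryos of a group the same expected share per gene. It thus does not cover a group whose embryos stand apart, and its outcome is not given here. Correlations used scipy 1.17.1, numpy 2.4.6 and pandas 2.3.3 in Python 3.11.15, and figures matplotlib 3.10.9.

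The members, roles and lists were chosen with earlier results of these data known. Named with values are, for each role and comparison, up to 3 called members with the smallest p in each direction, Psmb3, members called against most of their role, and members at 0 or not tested. Psmb8 was not tested in the fit of 6 groups. Other names were chosen after their values were seen. Of the pseudogenes set aside, 2 carry a number after their ending and match the letters of the rule.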

Additional observations from a re-analysis of the deposited data

Results flagged for a closer look

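A single embryo stood apart in 5 of the 82 sets examined, each the values of 1 member in 1 group of 4 to 10 embryos. Chance gives about 1 in 20, so this number is near that of chance, and the sets share the same embryos. All 5 sets were from 1PN embryos called parthenogenetic of the reciprocal cross. The highest embryo lay far from the other 3 for Psma7 (embryo 1, 234 CPM), Psmd9 (embryo 1, 197 CPM), Psmg1 (embryo 2, 40.3 CPM), Psmc4 (embryo 3, 11.1 CPM) and Psmb10 (embryo 7, 2.00 CPM).

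The parthenogenetic effect differed between the crosses for 24 members by edgeR's test of the difference itself. On the log2 scale, as the effect in C57BL/6 x JF1/Ms minus that in the reciprocal cross, the alpha subunits had Psma5 4.25, Psma2 3.70, Psma6 2.38, Psma4 1.92, Psma3 1.67 and Psma1 1.53. The beta subunits had Psmb7 3.69, Psmb5 2.57, Psmb1 2.12, Psmb4 2.10 and Psmb3 -2.28, and the restricted subunit Psmb10 had 5.75, fitted from 2 counts in the 4 embryos. The base had Psmc4 3.996, Psmc6 2.89 and Psmd1 -2.01. The lid had Psmd6 4.31, Psmd14 2.48, Psmd11 1.53 and Psmd13 6.40, the last also fitted from 2 counts. The chaperones had Psmg2 2.95 and Psmd5 1.30, the activators Psme4 -1.20 and Psme3 -1.14, and Psmc3ip had 3.22. Without embryos 1 and 2 of the reciprocal cross only Psma2 (3.09) and Psmd6 (5.34) passed, where 223 of 26116 genes passed above 0 and 340 below.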

How the results depend on the processing

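No count of called members moved by over 1.5 times with the first listing alone or without the 2 shallowest libraries. Others did, and the cause was not tested. For embryos called parthenogenetic against 2PN over both crosses, 5 members were higher, 8 with RLE size factors, 3 with no filter, and 3 without embryos 1 and 2 of the reciprocal cross. Against 1PN, 4 were higher, 2 with limma voom and 0 without embryos 1 and 2. In C57BL/6 x JF1/Ms, 3 were higher, 1 with limma voom, 5 with RLE and 1 with edgeR's legacy fit, and 17 were lower, 11 with total counts. In the reciprocal cross, 8 were higher, 4 with limma voom, 5 with the legacy fit and 0 without embryos 1 and 2, and 26 were lower, 9 without them. For the difference between crosses, 20 were above 0 and 4 below, 2 and 0 without embryos 1 and 2, where calls over all genes also became fewer. In C57BL/6 parthenotes 6 were higher, 3 with limma voom and 3 with the legacy fit. For embryos called parthenogenetic against these parthenotes 0 were higher, 1 with no filter. In reciprocal 2PN embryos 2 were higher, 4 with DESeq2, 1 with limma voom and 1 with no filter. Leaving out single embryos gave 5 to 9 higher in the reciprocal cross, where leaving out embryo 1 or embryo 2 gave 5, and 7 to 19 above 0 and 0 to 4 below for the difference between crosses. Signs turned in the reciprocal cross without embryos 1 and 2 for Psme3 (-0.084), Psmd10 (-7.16), Psmd9 (-1.65) and Psma7 (-0.26), and without embryo 1 for Psmd9 (-0.47) and Psma7 (-0.51; Psma7 ran from -0.51 to 1.91 with single embryos left out). For the difference between crosses they turned for Psme3 (0.21) and Psmb3 (0.22) without embryos 1 and 2. Positive correlations with oocyte-derived transcripts went from 1 to 0 in reciprocal 2PN embryos with TMM factors, and from 2 to 0 in parthenotes with TMM factors or log2(CPM + 0.1). Negative ones in parthenotes went from 8 to 5 with TMM factors.

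Embryos with the same number in their titles did not deviate together, with a median correlation of 0.0047 over 156 pairs against -0.0004 for other pairs, so the numbers do not pair them. With a replicate block of these numbers, called members numbered 2 higher and 15 lower against 1PN over both crosses, 6 lower in C57BL/6 x JF1/Ms, 5 higher in the reciprocal cross, 11 above 0 for the difference between crosses, and 0 higher in reciprocal 2PN embryos. Of 197 calls of single members 56 were lost under the replicate block and none changed sign.

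Depth limits the members with few counts: in embryos 3 and 7 of the reciprocal cross, Psmd13 rested on 1 count each.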

Other observations

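Proteasome genes differed in how much they varied between 2PN embryos of C57BL/6 x JF1/Ms. Of 44 members with a mean of at least 10 CPM, 19 had a coefficient of variation below the median of genes of like mean. The steadiest were Psme3, at 22.7% against 38.7% for genes of like mean, and Psmd4, at 22.9% against 32.4%. Psma7 varied most against its like, at 113% against 47.9%, and Psmb3 was at 78.4% against 57.5%.

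The libraries left out of the comparisons also gave values. The 1PN embryo of C57BL/6 x JF1/Ms labelled dead, with 3547812 counts, had 1803 CPM over all members, with Psme4 at 817 CPM and Psme3 at 389 CPM but Psmb3 at 4.51, Psma6 at 0.564 and Psmb1 at 1.41 CPM. Of the 2 labelled of low quality in that cross, embryo 6 had Psmb3 at 107.6, Psmb6 at 142 and Psma6 at 17.4 CPM, and embryo 8 had 16.8, 57.5 and 75.03 CPM. The low-quality library of the reciprocal cross held 4803 counts, too few to give levels.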
